A study of Homo sapiens with 8 samples.

Results

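The histone genes of the Burkitt lymphoma (BL) cell line ST486 were described from Ago2-RIP-Chip arrays. A probe was taken as a histone probe when its RefSeq accession belongs to a core or linker histone gene, which gave 99 probes of 78 genes, of 23953 probes with a gene symbol in 16554 genes. Of these, 64 genes with 76 probes are replication-dependent histone genes and 14 genes with 23 probes are replacement histone genes. The filters on detection and on the difference between dyes kept 71 histone probes of 57 genes, 55 of them replication-dependent (49 genes) and 16 of them replacement probes (8 genes).

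ST486 cells had been transduced with a retroviral MXW-PGK-IRES-GFP construct and sorted for GFP. The construct was either empty (EV-ST486) or carried miR-155 (miR-155-ST486), so all cells compared here carry the vector and are GFP-positive, and the only labelled difference is the miRNA. RNA was isolated from the lysate (total, T) and from the material precipitated with an antibody against Ago2 (IP), the Argonaute protein that holds a miRNA on its target transcripts. A Cy3 and a Cy5 labelling were made of each of the 4 RNA samples, and 4 2-colour arrays (8 channels) compared IP with total RNA of each cell population, once in either dye orientation. Labellings repeat a sample only technically, which leaves n = 1 per condition. No test between conditions could be made and no p-value is given; the main ratios are given with their values in both labellings.

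Replication-dependent histone genes lie in clusters, are transcribed in S phase when new DNA has to be packed into nucleosomes, and give short, intronless transcripts that end in a stem-loop bound by SLBP and not in a poly(A) tail. Replacement histones such as the H2AZ proteins and the H3-3 proteins are made throughout the cell cycle from genes with introns and polyadenylated transcripts, and enter chromatin outside replication. H2AX is counted with them here, but its gene has no intron and gives both a polyadenylated transcript and, in S phase, a short one with the stem-loop. The labelling kit primes on poly(A) tails, and the part of this priming in the signals of transcripts without a tail was not tested. Genes of a histone class are close to each other in sequence, the probe sequences were not used here, and probes of the same class may share signal.

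The mature miRNA that the construct supplies is hsa-miR-155-5p, which lies at chr21:25573983-25574006 on the plus strand of GRCh38.p14 (RefSeq). Its seed, bases 2 to 8, is in capitals and is the part that pairs with target transcripts.
hsa-miR-155-5p: uUAAUGCUaaucgugauagggguu

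The promoters of the histone genes are shown because the replication-dependent members moved together in total RNA. Whether the promoters play a part in this was not tested. A RefSeq promoter entry was found for 71 of the 78 genes. Those without an entry include H2AC12, H3-5, H3C11, H3C12, H4C1 and H4C3. The 250 bases before each start were searched on both strands for the octamer ATTTGCAT, bound by the POU factors of B cells and other cells, for CCAAT, bound by NF-Y, and for TATAAA, the core of the TATA box; none of these 3 motifs contains another. The octamer was found in 26 of 63 replication-dependent promoters (41.3%), in 1 of 17 replacement promoters and in 1.63% of all promoters. It was found in 11 of 14 H2A and 14 of 19 H2B promoters, in 1 of 12 H3 promoters and in 0 of 12 H4 and 0 of 6 H1 promoters. CCAAT was found in 54 of 63 replication-dependent promoters and in 12 of 17 replacement promoters, against 32.0% of all promoters, and 3 of 12 H4 promoters held it. TATAAA was found in 42 of 63 replication-dependent promoters, in 4 of 17 replacement promoters and in 10.7% of all promoters. A match is a run of letters and not a shown binding site.

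The 150 bases before the start of 6 genes are given as examples of an H2B promoter with all 3 motifs, of the H2B, H3 and H4 genes whose values are described below, and of a pair of replacement genes. Capitals mark a motif on either strand, all sequences read 5′ to 3′ on the strand of the gene, and the build is GRCh38.p14. H2BC11 lies at chr6:27132796-27132945 (minus strand), H2BC4 at chr6:26123927-26124076 (minus), H3C2 at chr6:26032100-26032249 (minus), H4C6 at chr6:26240243-26240392 (plus), H2AZ1 at chr4:99950276-99950425 (minus) and H3-3B at chr17:75779780-75779929 (minus).
H2BC11: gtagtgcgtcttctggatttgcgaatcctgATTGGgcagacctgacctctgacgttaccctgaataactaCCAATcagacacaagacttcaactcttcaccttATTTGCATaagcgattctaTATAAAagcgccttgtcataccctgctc
H2BC4: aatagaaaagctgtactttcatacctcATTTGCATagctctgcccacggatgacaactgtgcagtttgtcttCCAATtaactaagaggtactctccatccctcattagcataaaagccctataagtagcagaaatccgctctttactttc
H3C2: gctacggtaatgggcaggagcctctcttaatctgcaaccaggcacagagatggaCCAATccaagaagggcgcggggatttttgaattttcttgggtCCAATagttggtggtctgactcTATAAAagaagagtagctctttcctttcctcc
H4C6: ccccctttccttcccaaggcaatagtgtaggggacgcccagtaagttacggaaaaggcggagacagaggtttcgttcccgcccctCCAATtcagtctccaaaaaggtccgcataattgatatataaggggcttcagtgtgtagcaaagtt
H2AZ1: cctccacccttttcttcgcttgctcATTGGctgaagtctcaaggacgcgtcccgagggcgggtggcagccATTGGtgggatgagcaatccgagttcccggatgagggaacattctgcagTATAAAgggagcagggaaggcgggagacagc
H3-3B: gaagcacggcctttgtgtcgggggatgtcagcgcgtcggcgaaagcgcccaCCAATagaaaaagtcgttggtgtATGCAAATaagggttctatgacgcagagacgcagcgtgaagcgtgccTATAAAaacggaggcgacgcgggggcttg

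The labelled cell type was checked with marker genes. In the total RNA, 5 of 6 B cell markers were detected in all 4 channels (PAX5 in none), as were the 3 germinal centre or BL markers on the array, while all 4 T cell markers were detected in none. Of the 4 myeloid markers, CD14 was detected in 3 channels and the others in none. Of the 4 epithelial markers, EPCAM was detected in none, CDH1 in 1 channel, KRT18 in 3 channels on 1 of its 3 probes and KRT8 in 4 channels on 1 of its 2 probes. Between 14094 and 22161 probes were detected per channel, no histone probe was saturated, and 15529 probes were kept for the comparisons. The arrays of EV-ST486 and of miR-155-ST486 cells were on separate slides, so slide and vector cannot be told apart in any comparison between the vectors, whereas IP was compared with total RNA within an array.

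The first comparison asked which histone transcripts had another level in total RNA of miR-155-ST486 cells than in that of EV-ST486 cells. The replication-dependent histone probes were lower in miR-155-ST486 cells as a group, with a median log2 miR-155/EV of -0.65 (1.57-fold lower), -0.79 in the Cy3 and -0.46 in the Cy5 labelling, against a median of 0.02 over all 15529 kept probes. Of the 55 probes, 54 had a value below 0, and 51 were lower in both labellings, as were 34.5% of all kept probes. At least 1.5-fold lower were 34 of the 55, a fold that 4.12% of all kept probes reached. This count fell to 1 of 60 without quantile normalization, to 18 of 55 with IP RNA in Cy3 alone, and to 20 of 45 or 20 of 42 with normexp background correction. None was higher in both labellings (37.3% of all kept probes) or at least 1.5-fold higher (5.37%). Without quantile normalization the median of all kept probes was 0.44 in this comparison and that of the replication-dependent probes -0.18, so 12 of then 60 probes were above 0 and the distance to all probes was -0.62 in place of -0.67. With normexp background correction the distance was -0.51 or -0.52, and 41 of 45 or 41 of 42 probes were below 0.

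**Figure D1:**
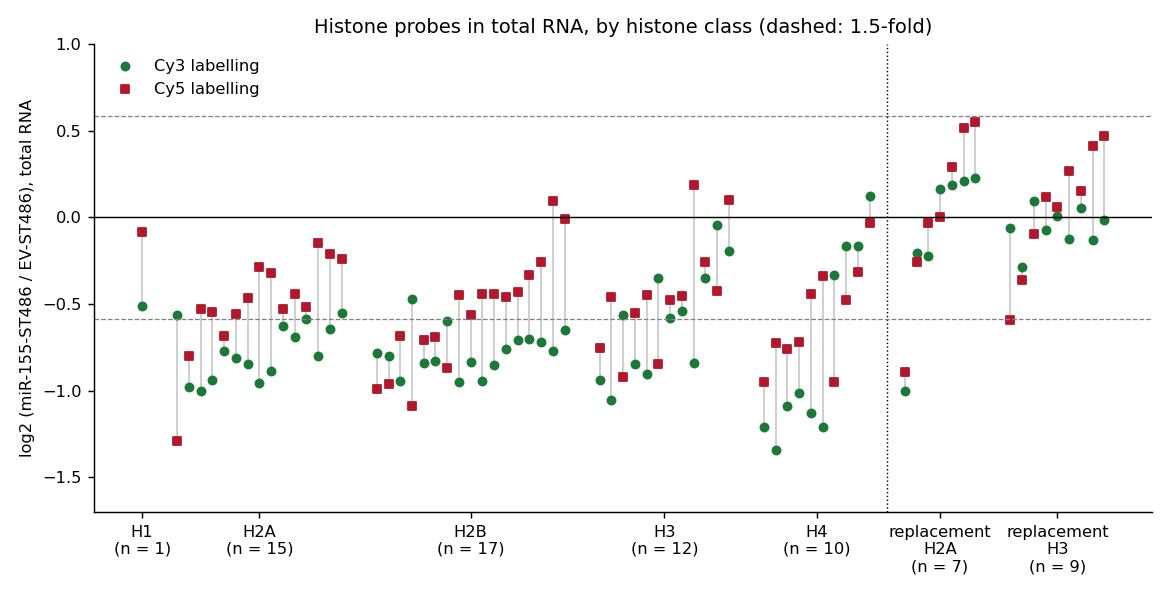
Log2 ratio of miR-155-ST486 over EV-ST486 cells in total RNA for the 71 kept histone probes, 1 position per probe, ordered within each class by the mean; circles are the Cy3 and squares the Cy5 labelling, and the dashed lines mark 1.5-fold. Of 55 replication-dependent probes, left of the dotted line, 51 lie below 0 in both labellings (without quantile normalization, 48 of 60 have a mean below 0), while the 16 replacement probes lie on both sides of 0.

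The values of single genes in total and in IP RNA are log2 ratios of miR-155-ST486 over EV-ST486 cells, with the Cy3 and then the Cy5 labelling in parentheses. H4 histones, which with H3 form the core tetramer of the nucleosome, had the largest median difference in total RNA, -0.78 over 10 probes, with 7 at least 1.5-fold lower. H4C6 gave normalised signals of 5414 (Cy3) and 4437 (Cy5) in EV total RNA and of 2345 and 2292 in miR-155 total RNA, a log2 ratio of -1.08 (-1.21 and -0.95). H4C1 gave 912 and 678 in EV total RNA and 360 and 409 in miR-155 total RNA, a ratio of -1.03 (-1.34 and -0.73). For both genes all EV labellings were above all miR-155 labellings. The ratios of H4C8, H4C14, H4C12, H4C9 and H4C4 were -0.92, -0.87, -0.79, -0.78 and -0.64, and those of H4C13 and H4C2 were -0.32 and -0.24. H4C3 was the exception among the 55 probes. Its signals were 206875 and 226396 in EV total RNA and 225356 and 221341 in miR-155 total RNA, so the vectors overlapped and the ratio was 0.05 (0.12 and -0.03).

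H3 histones carry many of the modified tail residues of chromatin, and their 12 probes had a median of -0.56 with 6 at least 1.5-fold lower. H3C2 was measured by a pair of probes at -0.85 and -0.70, and its first probe gave 11325 and 9584 in EV total RNA against 5900 and 5679 in miR-155 total RNA, without overlap. H3C10, H3C8, H3C4 and H3C1 had ratios of -0.76, -0.74, -0.68 and -0.60, the H3C15 probes -0.53 and -0.31, H3C6 -0.50 and H3C12 -0.33. The smallest differences in this class were those of H3-4, an H3 gene best known from testis, at -0.23, and of H3C3 at -0.05, whose Cy3 (-0.20) and Cy5 (0.10) labellings differed in sign.

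H2B histones pair with H2A in the nucleosome, and their 17 probes had a median of -0.70, with 12 at least 1.5-fold lower and 16 lower in both labellings. H2BC4 gave 756 and 862 in EV total RNA and 439 and 433 in miR-155 total RNA, a ratio of -0.89. H2BC13, H2BC9, H2BC12, H2BC3, H2BC14, H2BC17, H2BC10, H2BC11, H2BC7 and H2BC21 lay between -0.88 and -0.61, the pair of H2BC6 probes at -0.76 and -0.49, and H2BC26, H2BC5, H2BC15 and H2BC8 at -0.57, -0.52, -0.34 and -0.33. H2BC15 was the only H2B probe whose labellings differed in sign (-0.77 and 0.09).

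All 15 H2A probes were lower in both labellings, with a median of -0.62 and 9 at least 1.5-fold lower. The lowest was a probe of H2AC21 at -0.93, with 327 and 475 in EV total RNA and 221 and 194 in miR-155 total RNA, and the second probe of this gene gave -0.74. H2AC8, H2AC7, H2AC18, H2AC11, H2AC25 and H2AC15 lay between -0.89 and -0.58, the H2AC17 probes at -0.62 and -0.60, the H2AC20 probes at -0.57 and -0.47, and H2AC6, detected in 6 of 8 channels, at -0.55. The smallest differences were -0.43 for H2AC16 and -0.40 for H2AC12. With normexp background correction, 2 of 14 H2A means lay above 0 after quantile and 0 of 14 after loess normalization. Without quantile normalization, 2 of 17 did. H1-2, the only replication-dependent linker histone kept, had a ratio of -0.30 (-0.51 and -0.09).

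The genomic clusters of the replication-dependent genes gave similar medians in total RNA, -0.68 for the 43 probes of the large cluster on chromosome 6 (older symbols HIST1), -0.61 for the 9 probes of HIST2 and -0.57 for the 3 probes of HIST3. Probes of replication-dependent genes with the octamer in the promoter had a median of -0.69 (25 probes, between -0.93 and -0.33), and those without it had a median of -0.62 (26 probes, between -1.08 and -0.05). H2AC12, H3C12, H4C1 and H4C3, which have no promoter entry, are in neither group. Within the H2A and H2B genes the medians were -0.70 (24 probes) and -0.58 (7 probes), and the ranges overlapped.

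The replacement histones had a median of 0.05 in total RNA over 16 probes (-0.04 in Cy3 and 0.09 in Cy5). In both labellings 6 were higher (37.5%) and 5 lower (31.2%), close to the 37.3% and 34.5% of all kept probes. H2AJ, an H2A variant, had a large difference on its kept probe. This probe gave 3950 and 3211 in EV total RNA and 1972 and 1731 in miR-155 total RNA, which do not overlap, a ratio of -0.95 (-1.0 and -0.89), and was the only kept replacement probe at least 1.5-fold different. Another H2AJ probe, detected in 5 of 8 channels and not kept because its labellings differed by more than 2-fold, had the opposite sign at 0.71 (0.03 and 1.38). H2AX, the variant phosphorylated at DNA breaks, gave 17648 and 13661 in EV total RNA and 20431 and 19550 in miR-155 total RNA, a ratio of 0.36 (0.21 and 0.52). The 3 probes of H2AZ1, a variant found around transcription start sites, had ratios of 0.39, 0.24 and 0.08, and H2AZ2 had -0.13. MACROH2A1, which carries a large extra domain, was at -0.23. Among the replacement H3 genes the 5 probes of H3-3A lay between -0.33 and 0.14, the 3 probes of H3-3B between 0.02 and 0.23, and H3-5, a gene close in sequence to H3-3B, at -0.0017.

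The same contrast was read in the IP RNA, which was labelled separately from the total RNA but hybridized on the same arrays. The replication-dependent probes had a median log2 miR-155/EV of -0.49 (-0.57 in Cy3 and -0.39 in Cy5), against 0.0022 for all kept probes. Of the 55 probes, 54 were below 0, 47 were lower in both labellings (34.2% of all kept probes) and 19 were at least 1.5-fold lower (6.16%). None was higher in both labellings (34.4%) or at least 1.5-fold higher (6.42%). Without quantile normalization all kept probes had a median of 0.44 and the replication-dependent probes of -0.03 in the IP RNA, and H2B probes then lay above 0 in 13 of 17 cases. H4 probes had a median of -0.76, H2A probes of -0.55, H3 probes of -0.53 and H2B probes of -0.40. A probe of H3C2 had the largest difference, with 7785 and 8179 in EV IP RNA and 3588 and 3767 in miR-155 IP RNA (-1.12 in both labellings), and the second probe of this gene was at -0.84. H4C6 gave 3555 and 4350 against 1984 and 2131 (-0.94), and H4C3 258381 and 235530 against 192456 and 223238 (-0.25), both without overlap. H2BC14 was the only replication-dependent probe above 0 (0.19), with labellings of opposite sign. The replacement probes had a median of 0.05 in the IP RNA.

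**Figure D2:**
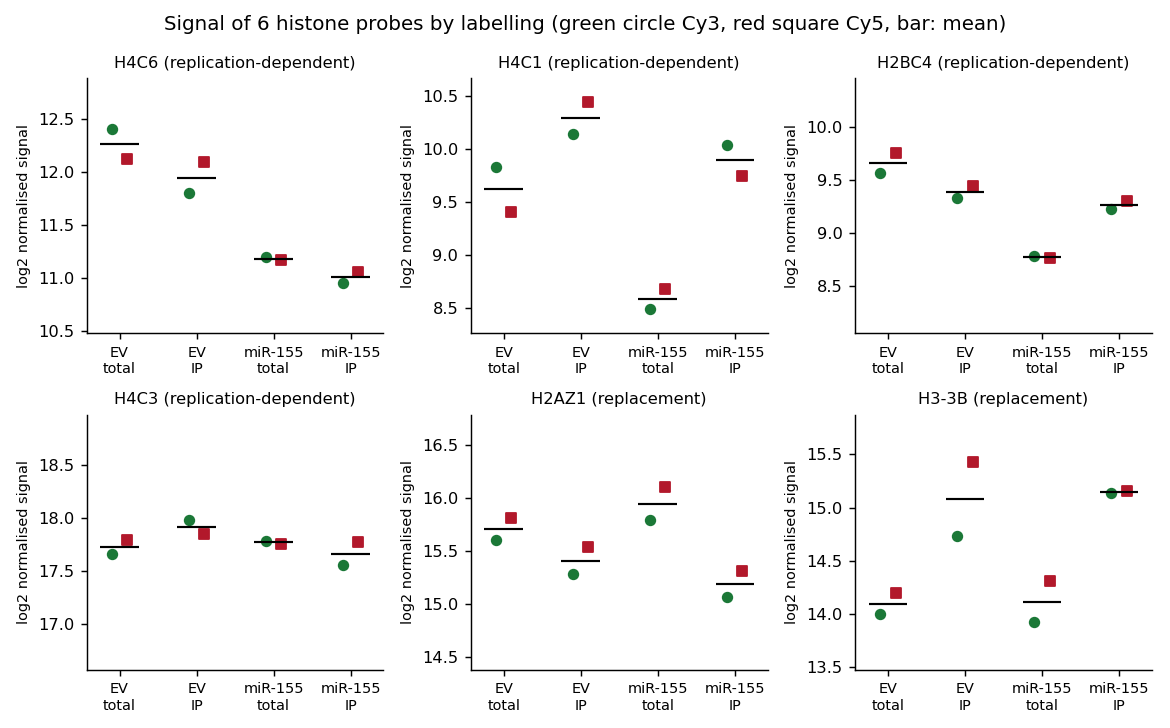
Log2 of the normalised signal of 6 histone probes in the 4 RNA samples, with circles for Cy3, squares for Cy5, bars for their mean, and a y axis that spans 2.4 log2 units in every panel. H4C6 and H4C1 drop between EV and miR-155 total RNA, the H4C3 labellings overlap, and the H3-3B probe is higher in IP than in total RNA of both cell populations.

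The second comparison asked which histone transcripts were enriched in the Ago2-IP relative to total RNA. The signals were normalized between channels, so IP/T is relative to other transcripts and not a recovered amount. IP/T ratios of the replication-dependent probes were close to 1, with a median log2 IP/T of -0.01 with the empty vector (-0.19 with total RNA in Cy3 and 0.08 with IP RNA in Cy3) and 0.10 with miR-155 (0.14 and 0.01), while all kept probes had medians of -0.15 and -0.18. An IP/T ratio of at least 2 was reached by 1 of 55 probes with the empty vector and by 2 of 55 with miR-155, against 12.1% and 12.2% of all kept probes. A ratio of 0.5 or less was reached by none, against 10.0% and 9.83%. The orientations of the EV arrays gave different orders of the histone probes. Over the 71 probes Pearson's r between orientations was 0.28 with the empty vector and 0.79 with miR-155, a description over probes that share arrays, and the median difference between orientations was 0.44 and 0.19 on the log2 scale (0.43 and 0.28 over all kept probes). H2A probes in EV-ST486 cells had a median of -0.46 in the first and 0.45 in the second orientation, and only H2AC16 was above 0 in both.

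**Figure D3:**
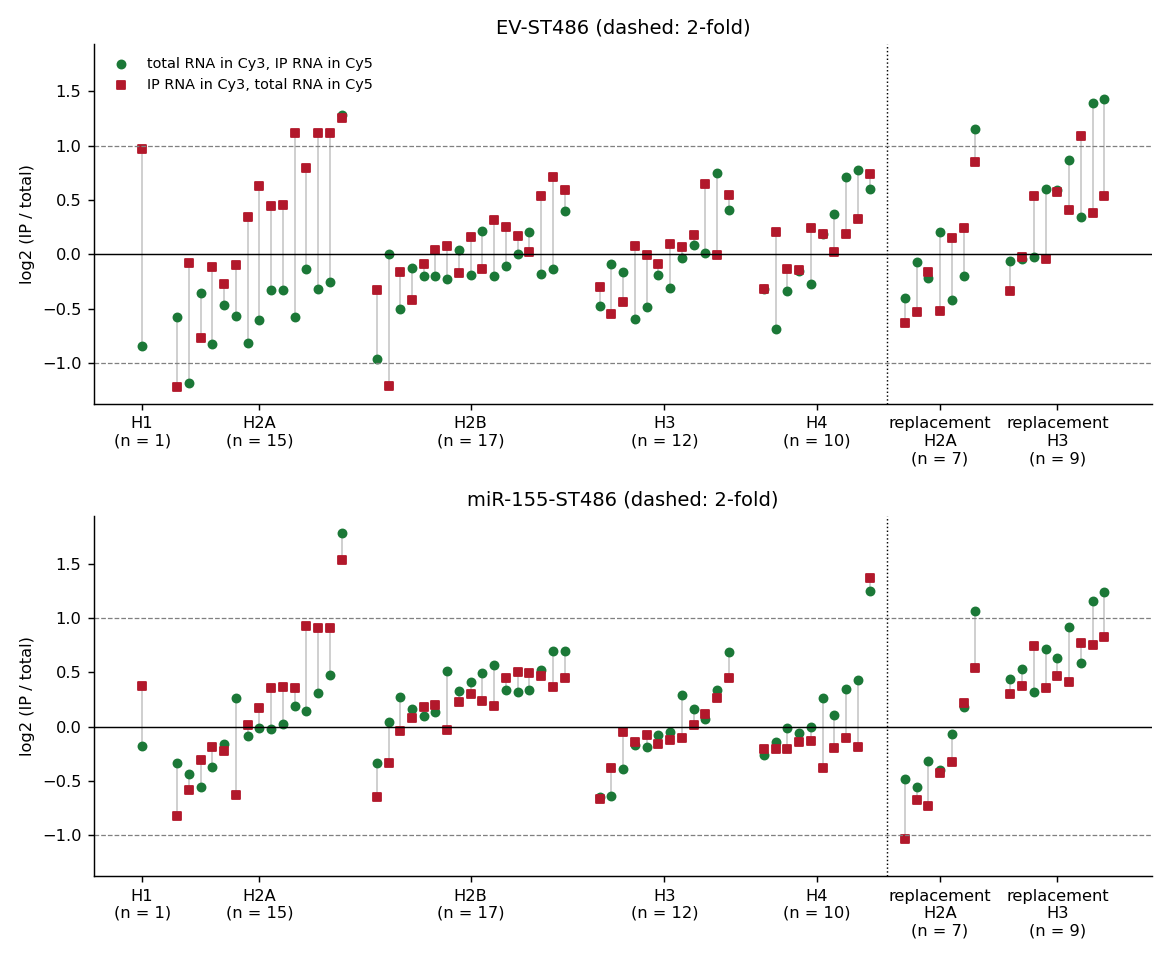
Log2 IP/T of the 71 kept histone probes in EV-ST486 (top) and miR-155-ST486 cells (bottom), 1 position per probe and ordered by the mean within each class; circles are arrays with total RNA in Cy3, squares arrays with IP RNA in Cy3, and the dashed lines mark 2-fold. Replication-dependent probes lie around 0 with 1 and 2 means at or above the upper line. The means of the 9 replacement H3 probes lie above 0 in 7 and in 9 cases, as do 6498 and 6310 of all 15529 kept probes.

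The IP/T ratios of single genes, and their miR-155/EV ratios further on, are linear, with the orientation with total RNA in Cy3 first in the parentheses. H2AC16 had the highest IP/T ratio of the histones. Its signals were low, 165 and 134 in EV total RNA, 320 and 401 in EV IP RNA, 105 and 116 in miR-155 total RNA and 334 and 362 in miR-155 IP RNA, and IP lay above total RNA in every labelling. The IP/T ratio was 2.41 (2.44 and 2.39) with the empty vector and 3.15 (3.45 and 2.89) with miR-155. With normexp background correction no replication-dependent probe had a ratio of 2 or more in EV-ST486 cells. H4C1 had 1132 and 1388 in EV IP RNA and 1053 and 857 in miR-155 IP RNA, which with the total signals above gives IP/T ratios of 1.59 (1.52 and 1.67) and 2.48 (2.38 and 2.57). H2AC12, H2BC8 and H2AC11 followed with 1.32, 1.41 and 1.35 with the empty vector and 1.61, 1.49 and 1.45 with miR-155. For H2AC12 and H2AC11 the EV orientations differed in sign, 0.80 against 2.17 and 0.84 against 2.17.

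The lowest IP/T ratios among the replication-dependent probes were those of H2AC20, H2BC12, H2AC21 and H3C2. A probe of H3C2 had the closest labellings of these, 0.77 (0.72 and 0.81) with the empty vector and 0.64 (0.64 and 0.63) with miR-155, while the second probe of this gene lay near 1, at 1.01 (0.98 and 1.05) and 0.92 (0.95 and 0.89). A probe of H2AC21 gave 0.54 (0.67 and 0.43) and 0.88 (0.89 and 0.86), and the second probe of this gene 0.72 (0.56 and 0.92) and 0.70 (0.74 and 0.67). A probe of H2AC20 gave 0.65 (0.44 and 0.95) and 0.67 (0.79 and 0.57), and the second 0.85 (0.57 and 1.27) and 0.82 (0.77 and 0.88). H2BC12 gave 0.66 (1.0 and 0.43) and 0.71 (0.79 and 0.64). By class, the median log2 IP/T without and with miR-155 was 0.02 and 0.08 for H2A, -0.01 and 0.36 for H2B, -0.12 and -0.10 for H3 and 0.09 and -0.06 for H4. The H4 medians depended on the processing. With normexp and quantile or loess normalization they were 0.43 or 0.40 with the empty vector and 0.03 or 0.17 with miR-155 (8 or 7 probes). The H3 median with the empty vector was then 0.10 or -0.06.

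The replacement histones divided by gene. The H3 genes of this group (H3-3A, H3-3B and H3-5) had IP/T ratios above 1 on 7 of 9 probes with the empty vector and on all 9 with miR-155. Of all 15529 kept probes, 6498 and 6310 were above 1. In both orientations 5 and 9 of the 9 H3 probes were above 1 (31.4% and 33.3% of all kept probes). The median log2 IP/T of these H3 probes was 0.59 and 0.55 (0.79 and 0.55 with normexp and quantile normalization, over 7 probes). The 3 probes of H3-3B gave IP/T ratios of 1.5, 1.64 and 1.98 with the empty vector and of 1.60, 1.44 and 2.05 with miR-155, above 1 in every orientation. The highest of these had signals of 16293 and 18708 in EV total, 27152 and 43995 in EV IP, 15464 and 20262 in miR-155 total and 36008 and 36572 in miR-155 IP RNA, so the IP labellings lay above the total labellings. H3-5 gave 1.85 (2.63 and 1.30) and 1.94 (2.23 and 1.68). The 5 probes of H3-3A gave ratios between 0.87 and 1.56 with the empty vector and between 1.29 and 1.59 with miR-155.

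H2AZ2 had the highest IP/T ratio of the replacement H2A genes, with 69221 and 74685 in EV total, 135057 and 154066 in EV IP, 59289 and 73026 in miR-155 total and 106129 and 124165 in miR-155 IP RNA. Its ratio was 2.01 (2.23 and 1.81) with the empty vector and 1.74 (2.09 and 1.45) with miR-155. H2AZ1, which encodes a protein that is nearly the same, lay on the other side of 1. Its 3 probes gave IP/T ratios of 0.90, 0.88 and 0.81 with the empty vector and of 0.70, 0.65 and 0.59 with miR-155, and in miR-155-ST486 cells each was below 1 in both orientations. MACROH2A1 gave 0.70 (0.76 and 0.65) and 0.87 (0.95 and 0.80), H2AX 1.01 (0.87 and 1.18) and 0.75 (0.76 and 0.75), and H2AJ 0.91 (0.75 and 1.11) and 1.15 (1.14 and 1.16). Over all 71 histone probes the IP/T values of the vectors correlated with r = 0.78, a description in which the probes share arrays.

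The third comparison asked whether histone transcripts were more abundant in the Ago2-IP relative to total RNA once miR-155 was present, by the ratio of the IP/T ratios (miR-155/EV). No histone probe reached a 2-fold ratio in either direction, which 1.15% of all kept probes did upwards and 0.477% downwards. The replication-dependent probes had a median log2 ratio of 0.11, 0.35 with total RNA in Cy3 and -0.07 with IP RNA in Cy3, and all kept probes of -0.02. Of the 55 probes, 18 were higher in both orientations (26.7% of all kept probes) and 10 lower in both (32.7%). Another 27 changed sign between the orientations, as did 6305 of all 15529 kept probes.

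**Figure D4:**
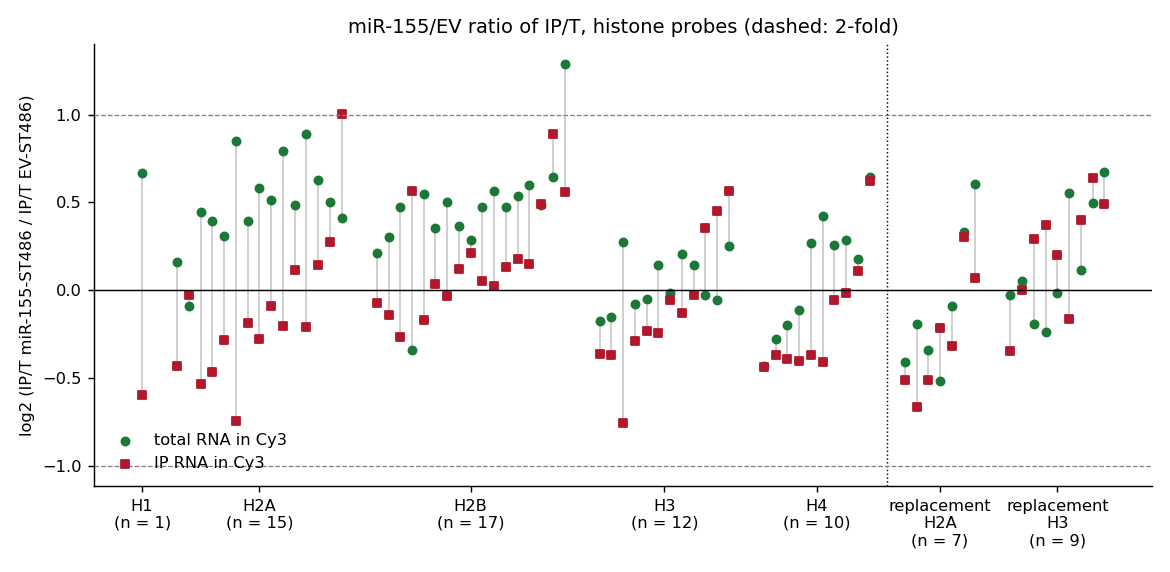
Log2 miR-155/EV ratio of the IP/T ratios for the 71 kept histone probes, 1 position per probe and ordered by the mean within each class; circles are the orientation with total RNA in Cy3, squares that with IP RNA in Cy3, and the dashed lines mark 2-fold. No mean passes 2-fold, and 31 of the 71 lines cross 0 (the orientations differ in sign for 6305 of all 15529 kept probes). All 17 H2B means lie above 0 (9 or 10 of 12 with normexp background correction), as do 7213 of all 15529 kept probes.

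H2B was the class with the most even direction. All 17 probes had a log2 ratio above 0 (9 or 10 of 12 with normexp background correction), with a median of 0.25. Over all 15529 kept probes, 7213 lay above 0. Of the 17 H2B probes, 11 were higher in both orientations (26.7% of all kept probes). The other 6 changed sign between the orientations (6305 of all 15529 kept probes). H2BC14 had the highest ratio of all histones, 1.89 (2.44 and 1.47), with signals of 2745 and 1476 in EV IP and 2206 and 2377 in miR-155 IP RNA, which overlap. H2BC4 gave 1.70 (1.56 and 1.85), with 643 and 694 in EV IP and 597 and 629 in miR-155 IP RNA. For H2BC4 the IP signals were close to each other while the total signals were lower in miR-155-ST486 cells. The H2AC21 probe with the lowest EV IP/T ratio gave 1.63 (1.33 and 2.0), the other probe of this gene 0.98 (1.31 and 0.72), and H4C1 gave 1.55 (1.56 and 1.54).

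The lowest ratios of the replication-dependent genes were all those of H4 genes. H4C2 gave 0.74 (0.74 and 0.74), H4C13 0.80 (0.82 and 0.77) and H4C3 0.81 (0.87 and 0.76), each with both orientations below 1. In the replacement group the H2A genes had a median log2 ratio of -0.37 over 7 probes and the H3 genes of 0.09 over 9 probes, and the latter turned to -0.15 and -0.22 with normexp background correction. H2AZ1 gave ratios of 0.78, 0.74 and 0.73 on its 3 probes, H2AX 0.74 (0.87 and 0.63) and H2AZ2 0.87 (0.94 and 0.80), all below 1 in both orientations. MACROH2A1 gave 1.25 (1.26 and 1.24) and H2AJ 1.26 (1.52 and 1.05). For H3-3A the 5 probes ranged from 1.02 to 1.5, for H3-3B the 3 probes from 0.88 to 1.07, and H3-5 was at 1.05 with its orientations on both sides of 1.

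Genes that act with the histones were read in the same way. The S phase list holds mostly genes of DNA replication and of entry into S phase, and also SLBP. Most genes of the chaperone list act in bringing histones to chromatin, but CENPA in it is itself an H3 variant. The 3′ end processing and decay list holds genes that make and remove the stem-loop end, SLBP again, and genes of histone transcription such as NPAT. In total RNA the 26 probes of 18 S phase genes had a median log2 miR-155/EV of 0.30, with 21 above 0, 20 higher in both labellings (37.3% of all kept probes), none lower in both (34.5%) and 5 at least 1.5-fold higher (5.37%). The 29 probes of 19 chaperone genes had a median of 0.24 and the 20 probes of 16 processing genes of 0.27, with 3 probes at least 1.5-fold higher in each list (5.37% of all kept probes), and 0 and 1 at least 1.5-fold lower (4.12%). With normexp background correction these medians were 0.16 or 0.12, 0.21 or 0.18 and 0.04 or 0.06. The S phase genes and the replication-dependent histones thus lay on opposite sides of 0 in total RNA, a difference that could not be tested with n = 1.

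**Figure D5:**
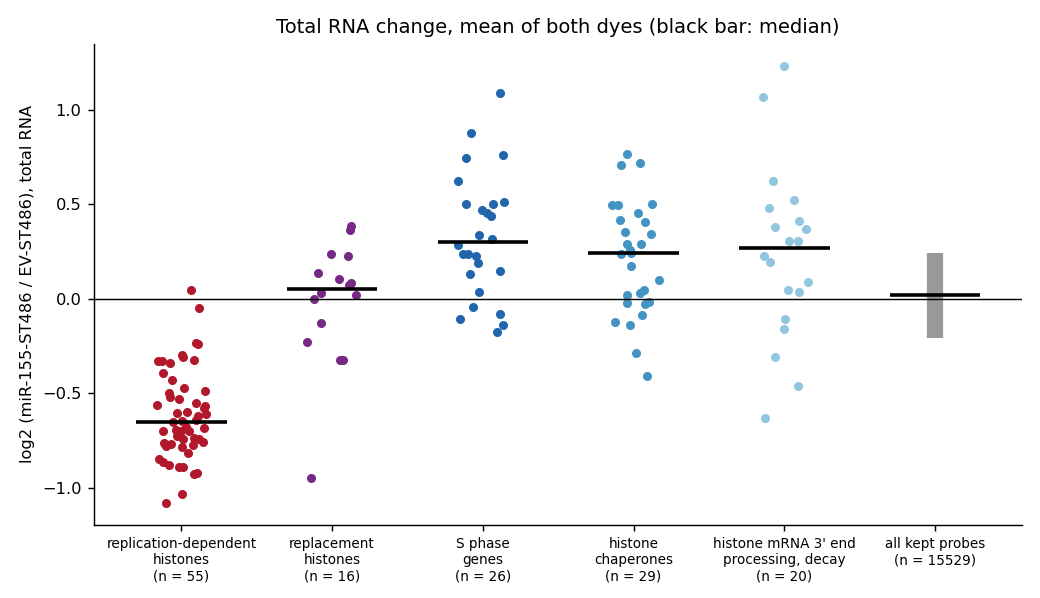
Log2 ratio of miR-155-ST486 over EV-ST486 cells in total RNA, mean of both labellings, for the probes of the histone groups and of 3 lists of genes that act with histones; each point is a probe, black bars are medians, and the grey bar spans the middle quartiles of all 15529 kept probes. The medians are -0.65, 0.05, 0.30, 0.24, 0.27 and 0.02 from left to right; without quantile normalization all shift up by about the 0.44 of all kept probes, and the first stays below 0 at -0.18.

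Values of the genes in these lists are on the log2 scale. Of the S phase genes, CCNE1 and CCNE2, the cyclins E that start S phase and drive histone gene transcription, had the highest IP/T values, 3.90 and 2.75 on the log2 scale with the empty vector and 4.15 and 1.81 with miR-155, and differed by -0.11 and 1.09 in total RNA. FEN1, a flap nuclease of replication, had the lowest on its 2 probes, -1.19 and -2.0 in EV-ST486 cells. SLBP, which binds the histone stem-loop, was at -0.55 with the empty vector and -0.56 with miR-155, with 0.23 in total RNA. NPAT, the cyclin E substrate that activates the histone clusters, had log2 IP/T values of 2.18 and 2.49 on its 2 probes with the empty vector and of 1.68 and 2.68 with miR-155, and was at 0.62 and 0.48 in total RNA (detected in 6 and 7 of 8 channels). LSM11 and LSM10, subunits of the U7 particle that cuts histone transcripts, lay far apart, at 0.85 and -1.47 in EV-ST486 cells. MIF4GD, the SLBP partner in translation, had the lowest value of its list, -1.81, and was at -0.63 in total RNA. Among the chaperones, CHAF1A of the replication-coupled assembly complex was at 0.32 with the empty vector and 1.25 with miR-155, NAP1L1 at 0.63 and 0.44, NAP1L4 at -1.50 and -1.08 and HJURP at -1.23 and -0.98.

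The 28 histone probes that were not kept complete the account. Of these, 15 were detected in fewer than 4 channels, 10 of them in none. They include the replication-dependent genes H1-1, H1-6, H2AC1, H2BC1, H4C16 and H4C7, further probes of H2AC11 and H2BC21, and the replacement genes H1-10, H1-7, H1-8, H2AB2 and MACROH2A2, several of which are known from germ cells. Another 12 replication-dependent probes and 1 replacement probe differed by more than 2-fold between the labellings of an RNA sample, 17.9% of the 67 detected replication-dependent probes against 20.2% of all detected probes. They belong to H1-3, H1-4, H1-5, H2AC4, H2AC14, H2AC18, H3C4, H3C7, H3C11, H4C5 and H4C11 and to H2AJ. In total RNA 6 of these 12 were lower in miR-155-ST486 cells in both labellings, against 51 of the 55 kept probes. With them included, 65 of 67 replication-dependent probes were below 0 in total RNA.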

How the data were processed

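The deposited files of single channels give intensity values. The authors had made them in Agilent Feature Extraction (10.5.1.1), where the background was subtracted and the dyes of an array were balanced, per the file headers. A second deposited table holds log2 values after quantile normalization and filtering by the authors. The flags for detection, outliers and saturation were used as deposited. From the intensities on, the published steps were followed. Control spots were left out (41000 probes remain), the spots of each probe were averaged with a floor of 1, and the 8 channels were quantile-normalized on the log2 scale. A probe was kept when 4 or more channels flagged it as positive, significant and well above background and when labellings differed by no more than 2-fold, and the log2 labellings were averaged. Of the deposited log2 values, 99.9% lay within 0.05 of those made here. IP/T is IP over total signal, miR-155/EV the ratio of these. The number of arrays limits the precision.

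Symbols came from the RefSeq accession of a probe, and sequences from RefSeq tables of GRCh38.p14. No coordinates of the arrays were used. IP/T and miR-155/EV were counted at 2-fold, total and IP RNA between vectors at 1.5-fold. The histone members and the gene lists were chosen with earlier results of these data known. By rule were named all kept replacement histones, the replication-dependent probes with the 5 highest and 5 lowest mean IP/T and the 3 highest and 3 lowest values of miR-155/EV and of total RNA, and the 2 highest and 2 lowest genes of each list; the other histone genes are named to complete the account. A gene that belongs to the members is not reported here by name. Alternatives were normexp background correction (offset 50) with quantile normalization or with loess and Aquantile, no quantile normalization, the deposited log2 values, detection in all 8 channels, no filter on detection or on dye differences, either dye orientation on its own, no outlier or saturated spots, and genes in place of probes. The total and IP RNA counts and medians between vectors were added after values were seen. The steps were tested on simulated data. Calculations used limma 3.58.1 in R 4.3.3 and pandas 2.3.3, matplotlib 3.10.9 and numpy 2.4.6 in Python 3.11.15.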

Additional observations from a re-analysis of the deposited data

Results flagged for a closer look

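For 5 named histone probes the IP/T ratio lay on opposite sides of 1 with the empty vector and with miR-155, in both dye orientations of each. The log2 miR-155/EV ratio was 0.92 for H2BC14 (log2 IP/T -0.64 with the empty vector and 0.28 with miR-155) and 0.77 for H2BC4 (-0.27 and 0.49). It was 0.58 for a probe of H3-3A (-0.03 and 0.55) and 0.57 for another probe of this gene (-0.20 and 0.37). It was -0.30 for H4C3 (0.19 and -0.11). With n = 1 per condition the difference was not tested, and in none of the 5 did it reach 2-fold. All kept histone probes were searched, but only hits among the named probes were retained, so the 5 are not a count over all histone probes. H2BC14, H2BC4 and H4C3 had been named for their high or low miR-155/EV ratio. The share of all kept probes with such a change was not counted. With the empty vector the first H3-3A probe lay close to a ratio of 1 (log2 -0.04 and -0.02 by orientation).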

How the results depend on the processing

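Sign changes were checked for the group medians and, in IP/T, miR-155/EV and total RNA, for the probes named by rule. None of these values past its fold threshold changed sign under an alternative that kept the probe. The median log2 miR-155/EV of the replication-dependent histones in total RNA stayed between -0.79 and -0.46 under all alternatives except without quantile normalization, where it was -0.18, with -0.034 in IP RNA; all kept probes had a median of 0.44 there, and the replacement histones 0.44 in total and 0.35 in IP RNA. The 34 replication-dependent probes at least 1.5-fold lower in total RNA became 1 without quantile normalization, 20 of 45 and 20 of 42 with normexp background correction and quantile or loess normalization, which keep fewer of these probes, and 18 with IP RNA in Cy3 alone. The count of these probes past an IP/T ratio of 2 (1 with the empty vector) was 0 with either normexp setting and 4 with IP RNA in Cy3 alone, and with miR-155 (2) it was 0 with normexp and quantile and 1 with normexp and loess normalization. The replacement histones rest on few probes. Their median log2 IP/T with the empty vector (0.14) was 0.34 without quantile normalization, 0.021 without the filter on detection and 0.26 without that on dye differences, and with miR-155 (0.49) 0.29 with normexp and quantile normalization, 0.37 with IP RNA in Cy3 alone and 0.36 by gene. Their median log2 miR-155/EV ratio (0.06) was -0.18 and -0.21 with the normexp settings, -0.0010 without quantile normalization and -0.020 with total RNA in Cy3 alone. Their total RNA median (0.05) was -0.037 with total RNA in Cy3 alone and -0.042 by gene, and their IP RNA median (0.05) was -0.10 with total RNA in Cy3 alone. The cause of these shifts was not tested. For single named probes, 1178 values moved by less than the spread between orientations and 130 by more. A single orientation always falls within that spread, and changing a filter leaves the value of a single probe as it was. The outcome was thus fixed for those settings, and the count does not measure how stable the values are. No paired analysis was possible because each condition has 1 RNA sample. Dim probes such as H2AC16 and H2AC6 lie near the background, which limits their ratios.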
